A study of Mus musculus with 2 samples.

Results

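Long noncoding RNA (lncRNA) promoters were taken here as the sequence within 1 kb of the transcription start site (TSS) of every autosomal lncRNA gene in the GENCODE M21 annotation of the mouse genome GRCm38. The 3 gene types used were lincRNA (a transcript between protein-coding genes), antisense (a transcript that overlaps another gene on the opposite strand) and processed_transcript (a noncoding transcript that the annotation puts in no other type). Of 8875 such genes, 8760 had a window that passed the minimum of 8 CG cytosines and 30 calls in each library. The windows were split by distance to the nearest protein-coding TSS. Distal windows lay over 2 kb away (7238 of 7342 annotated passed) and proximal windows at most 2 kb away (1522 of 1533), so that a proximal window shares sequence with the surroundings of a protein-coding promoter. Of the 104 distal windows that did not pass, 89 had too few covered CG cytosines. For the rest of the genome, 20280 protein-coding windows and 49652 windows of all autosomal genes together were measured in the same way. The TSS of a gene is the outermost 5′ end of its annotated transcripts and need not be the start that osteoblasts use.

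Methylation was measured by whole genome bisulfite sequencing (WGBS) of primary osteoblasts, the bone-forming cells, which were isolated from 3-day-old C57BL/6 mice and cultured for 3 days. Parietal bone of the skull was the source per the methods of the study. The wild type (WT) library was compared with a library from Tet1fl/fl Tet2fl/fl Tet3fl/fl mice that carried Prx1-Cre (TCKO), in which a Cre recombinase of the limb and skull mesenchyme deletes the loxP-flanked part of all 3 Tet genes in the cells where it is active. There was 1 library per genotype, and the number of mice behind each was not given in the sources used here. The comparison therefore has no replicate check, and every test below compares the 2 libraries and not the genotypes.

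TET1, TET2 and TET3 are dioxygenases that oxidise 5-methylcytosine (5mC) to 5-hydroxymethylcytosine (5hmC) and further products, a route by which cytosines lose methylation. Most CG dinucleotides (CpGs) of the mouse genome are methylated, while CpG-dense promoters, called CpG islands, and active enhancers are largely free of methylation. lncRNA genes are transcribed by RNA polymerase II like protein-coding genes, but many of their start sites lie in CpG-poor sequence, often within or beside enhancers. Bisulfite conversion reads 5mC and 5hmC alike as methylated.

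The sequences of 4 lncRNA promoters are shown because their CpG content differs and the results below return to them. Each run holds the 250 bases before the annotated TSS and the first 50 bases of the transcript, 5′ to 3′, read from GRCm38, with every CpG in capitals. Gm4861 and Gm16225 are lncRNAs whose windows were among those that gained the most methylation in TCKO, Mir99ahg hosts a microRNA cluster, and Malat1 is an abundant nuclear RNA whose promoter stayed unmethylated.
Gm4861, chr3:137552573-137552872, minus strand: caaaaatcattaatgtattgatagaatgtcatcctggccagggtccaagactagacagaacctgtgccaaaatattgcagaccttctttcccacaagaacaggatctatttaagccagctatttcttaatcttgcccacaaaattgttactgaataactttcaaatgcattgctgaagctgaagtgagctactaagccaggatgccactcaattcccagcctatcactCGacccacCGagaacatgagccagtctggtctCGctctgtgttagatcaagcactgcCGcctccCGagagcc
Gm16225, chr4:135120398-135120697, minus strand: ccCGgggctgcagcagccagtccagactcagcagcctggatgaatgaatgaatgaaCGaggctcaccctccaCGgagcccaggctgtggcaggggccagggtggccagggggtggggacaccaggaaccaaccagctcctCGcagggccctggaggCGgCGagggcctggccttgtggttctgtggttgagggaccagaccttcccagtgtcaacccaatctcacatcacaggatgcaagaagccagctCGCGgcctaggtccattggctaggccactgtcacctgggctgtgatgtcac
Mir99ahg, chr16:77236067-77236366, plus strand: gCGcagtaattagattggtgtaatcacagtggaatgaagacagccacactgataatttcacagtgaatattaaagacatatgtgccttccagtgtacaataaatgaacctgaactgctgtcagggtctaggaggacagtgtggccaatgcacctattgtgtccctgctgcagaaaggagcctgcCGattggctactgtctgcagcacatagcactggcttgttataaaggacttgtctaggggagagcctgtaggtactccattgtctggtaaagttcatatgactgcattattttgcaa
Malat1, chr19:5802623-5802922, minus strand: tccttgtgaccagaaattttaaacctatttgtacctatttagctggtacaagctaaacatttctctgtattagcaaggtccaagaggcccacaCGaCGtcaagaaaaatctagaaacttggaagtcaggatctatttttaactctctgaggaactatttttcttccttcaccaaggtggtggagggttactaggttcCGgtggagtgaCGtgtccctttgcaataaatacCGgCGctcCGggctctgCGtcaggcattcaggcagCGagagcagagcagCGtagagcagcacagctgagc
The stretches of Mir99ahg and Gm4861 held 2 and 5 CpGs, and those of Gm16225 and Malat1 held 8 and 10. Over the 300 bases of Gm4861, 0 of 27 calls were methylated in WT, which allows a share of up to 11.1% (3 counts of the total), and 45 of 67 in TCKO (95% Wilson interval 55.3 to 77.2%). At Gm16225 the calls were 2 of 19 in WT and 31 of 38 in TCKO. Mir99ahg had 7 of 16 methylated calls in WT and 12 of 14 in TCKO. Malat1 had 2 of 196 in WT and 0 of 134 in TCKO. The first 3 stretches thus differed by 42.0 to 71.1 points between the libraries, and that of Malat1 by -1.02 points.

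The WT library held 261127589 calls over CG cytosines and the TCKO library 223645082, and over the autosomes 70.4% of calls in WT and 76.6% in TCKO were methylated, a difference of 6.23 points. A call is a read of 1 cytosine as methylated or not, and the level of a window is the share of methylated calls among all its calls. A lncRNA window had a median of 241 calls in WT and 197 in TCKO. Neighbouring calls can come from 1 read, and the sources used here do not say whether duplicate reads were removed. Counting error is therefore the only error that the intervals and p-values hold. The loxP-flanked exons are not named in the sources used here, so the calls over each exon of the Tet genes with 500 bp on either side are given as a description. The median ratio of TCKO to WT calls, over exons with at least 50 WT calls, was 0.765 for Tet1, 0.734 for Tet2 and 0.793 for Tet3, against 0.855 over the autosomes. The lowest exon of each gene, chosen for its ratio, was exon 11 of Tet1 with 86 WT and 5 TCKO calls, exon 9 of Tet2 with 75 and 6, and exon 9 of Tet3 with 94 and 6. As a check of the cell type, the WT levels of the 10 osteoblast marker windows ran from 0.101% at Prrx1 to 71.9% at Bglap with a median of 17.4%, those of 5 haematopoietic markers from 61.9 to 78.4%, those of 4 endothelial markers from 11.7 to 80.7%, those of 3 muscle markers from 29.3 to 65.8%, and those of 2 neural markers were 1.73 and 68.5%. In TCKO the medians were 30.35% for osteoblast, 80.2% for haematopoietic, 83.5% for endothelial, 25.45% for muscle and 37.3% for neural markers. The WT medians of the last 4 sets were 70.75, 71.7, 32.1 and 35.1%. A promoter's methylation is no measure of its transcription, and the part of other cells in the results below was not tested.

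Methylation was higher in TCKO at most lncRNA promoters, and more so at the distal ones. Distal windows had a median level of 68.7% in WT and 78.2% in TCKO, with a median difference of 6.98 points, and 84.2% of them were higher in TCKO. The middle of the distribution ran from 2.11 points at the lower quartile to 13.3 points at the upper quartile. Proximal windows were far less methylated, with medians of 15.3% in WT and 20.8% in TCKO, a median difference of 2.89 points and quartiles of -0.0695 and 8.11 points. Protein-coding windows had medians of 25.9% and 31.7%, with a median difference of 3.06 points. The gene windows of the remaining types, such as pseudogenes and small RNA genes, had a median of 72.8% in WT over 20612 windows. That was above the 68.7% of distal lncRNA windows, and their median difference was 3.77 points.

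A window was called when the 2-sided Fisher exact test on its calls gave an adjusted p below 0.05 (Benjamini-Hochberg over the 49652 windows) and the levels differed by at least 20 points. Of the 7238 distal windows, 820 (11.3%) were called higher in TCKO and 10 (0.138%) lower. Of the 1522 proximal windows, 72 (4.73%) were called higher and 5 (0.329%) lower. Over all autosomal gene windows the shares were 5.84% higher and 0.205% lower, and over protein-coding windows 4.97% higher and 0.276% lower. The distal share was therefore above the background and the proximal share close to that of protein-coding windows. The scatter of both libraries shows the called windows above the diagonal, mostly at intermediate WT levels.

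**Figure D1:**
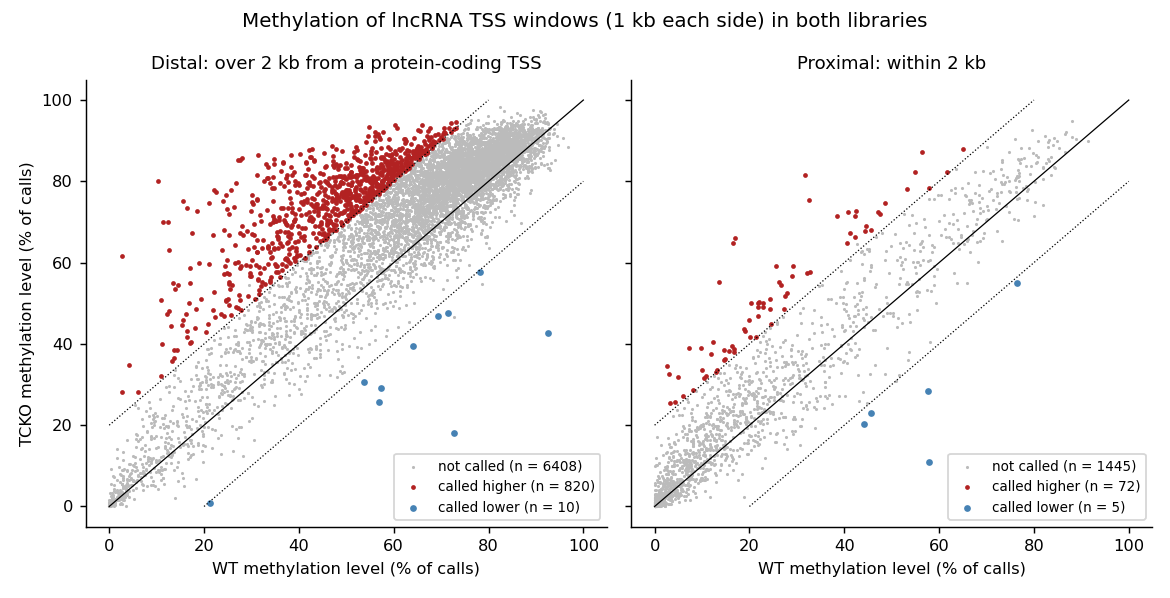
Methylation level of each lncRNA window in WT (x axis, % of calls) and in TCKO (y axis), for distal and proximal windows, with the line of equal levels and dotted lines 20 points above and below it. Called windows are coloured: 820 distal and 72 proximal windows lay above the upper dotted line, and 10 and 5 below the lower line.

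By strand, 812 of the 820 distal windows called higher had a positive difference on each of the 2 strands, with median differences of 27.1 points on the plus strand and 27.4 points on the minus strand, and 71 of the 72 proximal windows did so. The call was made on the sum of both strands, so these values describe the called windows and lend them no further support. Windows of neighbouring genes can overlap: 392 of the 8760 overlapped another lncRNA window, in 8563 separate runs of at most 3 windows. With only CG cytosines that had a call in both libraries, an alternative added after the data were seen, 743 of the 820 distal calls and 58 of the 72 proximal calls were made again. The distal count ranged from 77 with a minimum difference of 40 points to 2473 with no minimum. The proximal median difference was 0.920 points within 500 bp of the TSS and 5.33 points as a mean over CG cytosines with at least 4 calls. Gm42418 and AY036118 on chromosome 17, whose TSSs lie close together, held 19342 and 19584 calls in WT against a distal range that began at 31, so levels of window classes are given as medians over windows.

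The difference in distal windows was matched in the sequence around them. The flanks from 1 to 5 kb on either side of the same TSSs had a median difference of 7.03 points, against 6.98 points in the windows, and the window exceeded its own flank in 3721 of 7238 cases (51.4%). In 200 bp bins with calls pooled over the distal genes, the lowest WT level was 56.2% in the bin from -200 to -1, where TCKO had 65.2%. That difference of 9.0 points was the largest of the 50 bins, and the smallest was 6.91 points. Without Gm42418 and AY036118, an alternative added after the data were seen, the bin had 56.6 and 65.8%, a difference of 9.19 points. For the 820 windows called higher, the same bin had 36.3% in WT and 70.7% in TCKO, and the difference fell to 7.58 points in the bin from 3000 to 3199. These 820 windows were chosen for their difference, so the contrast with their flanks (26.4 points against 8.99 points in the median) is a description. Around proximal TSSs the pattern ran the other way: the window differed by 2.89 points and the flank by 6.66 points, the WT level fell to 10.9% beside the TSS, and the TCKO level there was 13.7%. Protein-coding genes had 3.06 points in the window and 5.71 points in the flank, and genes of the remaining types 3.77 and 4.92 points.

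**Figure D2:**
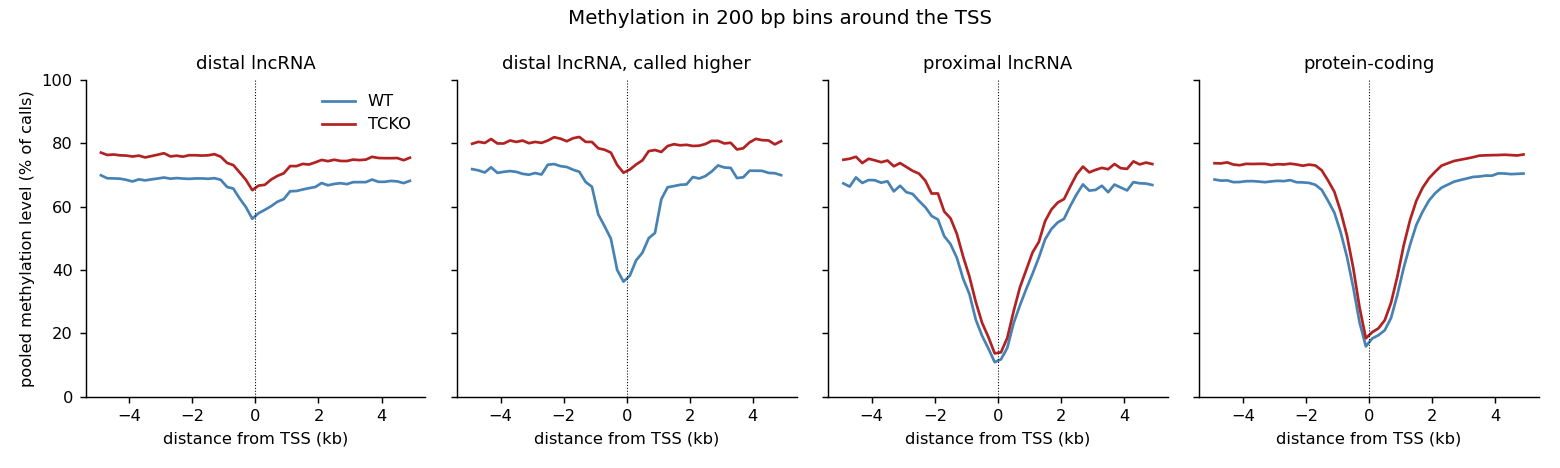
Pooled methylation level (% of calls) in 200 bp bins from 5 kb before to 5 kb after the TSS (x axis, kb) in WT and TCKO, for distal lncRNA windows, the distal windows called higher, proximal lncRNA windows and protein-coding windows. The dip at distal TSSs is shallow, at 56.2% in WT, while the windows called higher dip to 36.3% in WT and stay at 70.7% in TCKO. Proximal and protein-coding TSSs dip below 20% in both libraries.

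Distal windows that were partly methylated in WT differed most. Among distal windows with a WT level of 30 to 50%, 337 of 856 (39.4%) were called higher and the median difference was 16.2 points. From 50 to 70% the share was 16.0% with a median of 11.3 points, and from 10 to 30% it was 22.9% with a median of 8.23 points. Distal windows under 10% were called in 1.69% of cases with a median of 1.53 points. At 70% and over, where a rise of 20 points is near the ceiling, 0.353% were called and the median difference was 4.64 points. Proximal windows of 30 to 50% had 17 of 200 called higher (8.50%) and a median of 3.38 points, and protein-coding windows in that class had 12.8% called and a median of 4.83 points. Sorting by the WT level and then taking the difference from the same calls can inflate the difference in low classes, so the class was also set on the calls of 1 strand and the difference taken from the other strand, an alternative added after the data were seen. Distal windows of the 30 to 50% class then had median differences of 13.1 points over 809 windows and 12.5 points over 851 windows, and protein-coding windows 5.34 and 5.44 points.

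**Figure D3:**
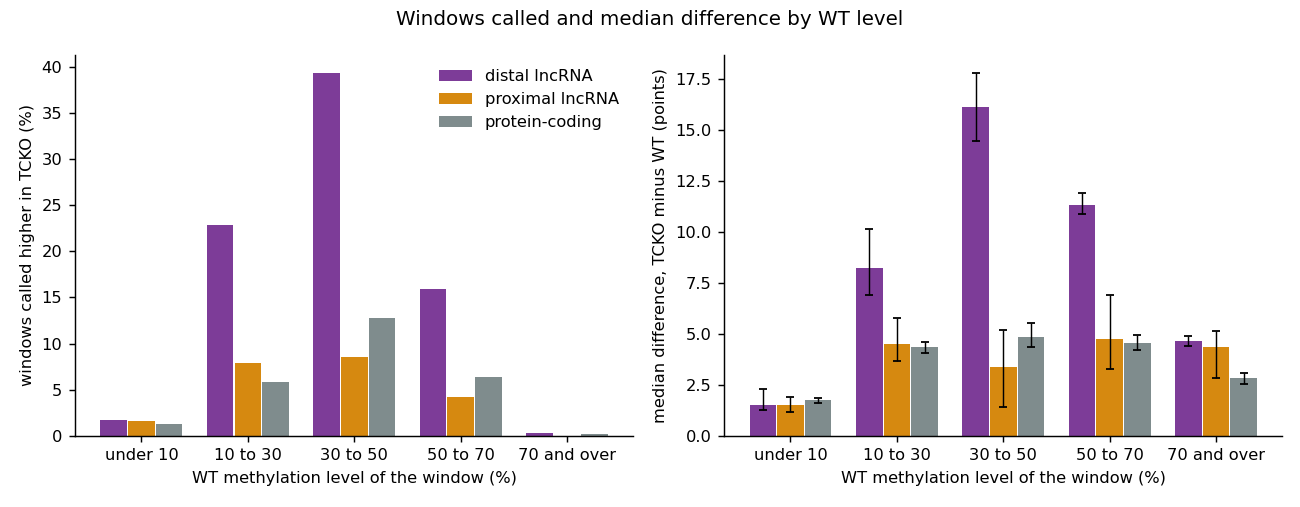
Left, share of windows called higher in TCKO (%), and right, median difference TCKO minus WT (percentage points) with the 95% order-statistic interval of the median over windows, by WT methylation level of the window (x axis, %). Bars are distal lncRNA, proximal lncRNA and protein-coding windows, and distal windows of 30 to 50% stand highest in both panels, at 39.4% and 16.2 points.

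CpG density separated windows in the same way. A distal window held a median of 23 CpGs and a proximal window 86. With CpG density expressed as the observed over the expected number given the base composition, 3.05% of distal windows and 50.7% of proximal windows reached 0.6, a common limit for CpG islands. Of the 221 distal windows at or above 0.6, 1 was called higher and 3 lower, and their median levels were 9.56% in WT and 12.5% in TCKO. From 0.4 to 0.6 the share called higher was 7.77%, from 0.2 to 0.4 it was 13.3%, and below 0.2 it was 10.5%. The 13.3% of distal windows from 0.2 to 0.4 stood beside 13.1% of the 252 proximal windows and 394 (10%) of the 3939 protein-coding windows of that density.

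By distance to the nearest protein-coding TSS the share called did not rise steadily. It was 4.94% of lncRNA windows within 500 bp, 2.86% from there to 1 kb, 6.23% from 1 to 2 kb, 6.91% from 2 to 10 kb, 10.2% from 10 to 50 kb, 14.1% from 50 to 200 kb and 12.2% beyond. The 3 gene types of distal windows were close to each other, with 11.9% of lincRNA, 10.2% of antisense and 10.4% of processed_transcript windows called higher. A distal TSS outside protein-coding genes was called in 11.9% of 5105 cases and one inside a protein-coding gene on the opposite strand in 10.1% of 2013. Start sites in soft-masked sequence, which marks interspersed repeats, were called in 7.87% of 1436 cases and those in unmasked sequence in 12.2% of 5802. Across the 19 autosomes the median difference of distal windows ran from 5.60 points on chromosome 5 to 8.45 points on chromosome 18. From the least to the most deeply read group of about equal size, 11.6, 12.6 and 9.86% of distal windows and 7.09, 4.34 and 2.76% of proximal windows were called higher. The median WT level of the proximal groups was 23.5, 13.2 and 11.8%. Of the windows called lower, 8 of 10 distal and 5 of 5 proximal were in the least deeply read group.

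The 8 distal windows with the largest increases among those called differed by 57.6 to 69.9 points, and they were chosen for that difference. Gm17308 (ENSMUSG00000096922), a lincRNA on chromosome 3, led the list. Its window had 25 methylated calls of 242 in WT, 10.3% (95% Wilson interval 7.10 to 14.8%), and 174 of 217 in TCKO, 80.2% (74.4 to 84.9%), with an adjusted Fisher exact p of 3.72e-52. The nearest protein-coding TSS, of the zinc finger homeobox gene Zfhx4, was 128250 bp away. In the bin from 200 to 399 bp after the TSS, 2 of 129 calls were methylated in WT and 77 of 98 in TCKO, while in the next bin WT already had 16 of 26.

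Gm4861 (ENSMUSG00000055138), a lincRNA on chromosome 3 from 137550045 to 137552622 (minus strand), was almost free of methylation in WT. It had 6 methylated calls of 220, 2.73%, in WT and 140 of 227, 61.7%, in TCKO (adjusted Fisher exact p 5.68e-43). Its bin from 0 to 199 bp after the TSS, which holds the CpGs at the end of the printed stretch, had 0 of 62 methylated calls in WT and 74 of 101 in TCKO. The window held 16 CpGs in all, at 0.179 of the expected number, so that it was nearly free of methylation in WT without the density of a CpG island.

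The other distal windows of this group are given with the nearest protein-coding gene. Gm32531 on chromosome 8 rose from 15.5 to 75.2% (485749 bp from Cdh11, which encodes osteoblast cadherin). Lncppara on chromosome 15 rose from 11.3 to 69.9% (71143 bp from Wnt7b, a Wnt ligand), and Gm12295 on chromosome 11 from 27.2 to 85.3% (95809 bp from Myocd, a smooth muscle coactivator). Nr6a1os, antisense within the nuclear receptor gene Nr6a1 on chromosome 2, rose from 12.3 to 70.1%, and its bin from 400 to 599 bp had 6 of 163 methylated calls in WT and 108 of 140 in TCKO. Gm49454 on chromosome 10 (12101 bp from Nrbf2) rose from 28.0 to 85.7% over 507 and 461 calls. 5031425F14Rik on chromosome 2 (266381 bp from Prex1) had the fewest calls, 47 in WT and 34 in TCKO, with levels of 27.7 and 85.3%. The adjusted Fisher exact p-values of the 8 windows ran from 1.41e-73 at Gm49454 to 6.75e-06 at 5031425F14Rik. Over the 1 kb upstream of the TSS alone, Nr6a1os differed by 10.4 points and was not called. The distances are those to the nearest annotated TSS and say nothing of which gene a sequence acts on.

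**Figure D4:**
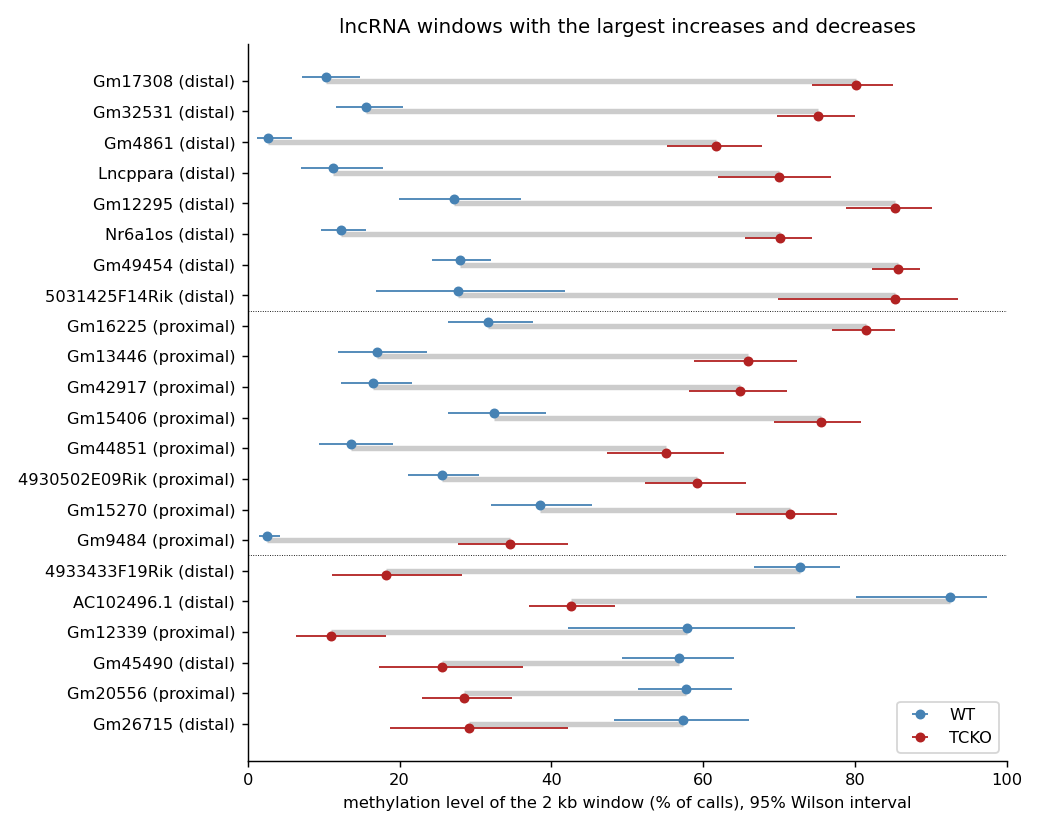
Methylation level (x axis, % of calls) of the 8 distal and 8 proximal windows with the largest increases and the 6 lncRNA windows with the largest decreases, in WT and TCKO, with 95% Wilson intervals. The windows were chosen for their difference. Increases run from 32.0 points at Gm9484 to 69.9 points at Gm17308, and decreases from -28.3 points at Gm26715 to -54.5 points at 4933433F19Rik.

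The largest proximal increase was at Gm16225 (ENSMUSG00000086884), a lincRNA on chromosome 4 from 135118221 to 135120447 (minus strand) whose TSS lies 205 bp from that of Runx3, a Runt family transcription factor of bone, cartilage and blood. It had 84 methylated calls of 265 in WT, 31.7% (95% Wilson interval 26.4 to 37.5%), and 272 of 334 in TCKO, 81.4% (76.9 to 85.2%), with an adjusted Fisher exact p of 1.04e-32. Every bin from -1000 to -1 was higher in TCKO, for example 22 of 88 methylated calls in WT against 77 of 100 in TCKO from -600 to -401. The printed stretch of Gm16225 holds the Runt letters AACCACA on the reverse strand (read as TGTGGTT) at -77 and -69, which describes its sequence only. Those letters occur on either strand in 5.32% of 31365 promoter sequences of the same length from RefSeq (GRCm38.p6, autosomes).

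The other 7 proximal windows of this group rose by 32.0 to 49.0 points. Gm13446 within Dab2ip, a Ras GTPase activator, rose from 17.0 to 65.9%, and Gm42917 within Trafd1 from 16.5 to 64.9%. Gm44851 within Furin, a proprotein convertase, rose from 13.5 to 55.1%, and Gm15270, whose TSS lies within Ccn2 (connective tissue growth factor), from 38.5 to 71.4%. Gm15406, 1419 bp from Gm42791, rose from 32.5 to 75.5% and 4930502E09Rik, beside Dhrs11, from 25.5 to 59.1%. Gm9484, 325 bp from Bmp2k, rose from 2.55 to 34.6%, but it had 548 calls in WT and 162 in TCKO. From 800 to 999 bp after its TSS, 3 of 50 calls were methylated in WT and 22 of 32 in TCKO, whereas from -600 to -401 neither library had a methylated call among 83 and 24. Over the 1 kb upstream alone it differed by 0 points, and 4930502E09Rik and Gm15406 by 8.35 and 13.2 points, so that none of the 3 was called there.

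Of the 8760 lncRNA windows, 15 (0.171%) were called lower, beside 0.205% of all autosomal gene windows. The 6 with the largest decreases fell by 28.3 to 54.5 points. 4933433F19Rik (ENSMUSG00000097044), a lincRNA on chromosome 8 from 30568393 to 30575573 (plus strand), had 173 methylated calls of 238 in WT, 72.7%, and 14 of 77 in TCKO, 18.2% (adjusted Fisher exact p 3.16e-15). From 600 to 799 bp after its TSS, 43 of 64 calls were methylated in WT and 0 of 33 in TCKO. Gm45490, whose TSS lies on the same chromosome at 30442224, fell from 56.8 to 25.6% over 169 and 78 calls. Within 2 kb of the TSS 4933433F19Rik differed by -17.5 points, and without soft-masked CG cytosines Gm45490 differed by -14.8 points. Neither was called there. Between them, Gm45489 at 30513811 rose from 26% over 250 calls to 54.5% over 189 calls, a gene chosen after its values were seen.

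Numbers of calls were unequal at 3 of the remaining decreases, as they were at 4933433F19Rik and Gm45490. AC102496.1 on chromosome 18 had 37 of 40 methylated calls in WT and 124 of 291 in TCKO, and Gm12339, within Doc2b on chromosome 11, had 22 of 38 and 12 of 109. At Gm12339 from 200 to 399 bp after the TSS, 0 of 2 calls were methylated in WT and 5 of 49 in TCKO, so the CpG-dense part of the window was nearly unread in WT. Gm26715 fell from 57.4 to 29.1% over 115 and 55 calls. Over CG cytosines with a call in both libraries it differed by -26.6 points and was called again. Gm20556, beside Arhgap8, fell from 57.7 to 28.5% over 241 and 221 calls, but its difference was -3.35 points within 500 bp of the TSS, -5.97 points in the 1 kb upstream and -6.43 points as a mean over CG cytosines, and it was not called in 7 of 17 alternatives. From 600 to 799 bp after its TSS the calls were 69 of 82 methylated in WT and 12 of 15 in TCKO, so that the methylated end of the window had nearly equal levels and far more calls in WT. With only CG cytosines that had a call in both libraries, 6 of the 10 distal and 1 of the 5 proximal decreases were called again, and Gm20556, at -17.5 points, was not. On those cytosines 4933433F19Rik differed by -52.3 points and Gm45490 by -30.9 points, and both were called again. AC102496.1 and Gm12339 fell below the minimum there. The part of unequal coverage in the decreases was otherwise not tested. The counts of 10 and 5 were 2 and 1 with a minimum difference of 40 points and 24 and 18 on the minus strand alone.

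The lists below were set by symbol, and their shares called higher stand beside the 5.84% over all gene windows. The 17 snoRNA host genes (the Snhg genes and relatives, whose introns hold small nucleolar RNAs) had a median level of 13.2% in WT and 19.3% in TCKO, 15 of 17 were higher in TCKO, and none was called. Snhg1 had 3 methylated calls of 587 in WT and 1 of 613 in TCKO. Zfas1 had 2 of 497 and 5 of 339, and Snhg8 4 of 480 and 6 of 387. Snhg5 had 3 of 314 and 16 of 408. Higher levels were measured at Snhg17 with 23.4 and 32.7%, Snhg3 with 13.2 and 19.3%, Snhg12 with 30.4 and 35.9%, and Snhg6 with 41.2 and 43.5%. In all, 7 of the 17 were under 10% in both libraries. Differences over the list ran from -4.19 points at Dancr to 18.5 points at Snhg20, and Snhg18 rose by 16.6 points from 1 methylated call of 176 in WT to 29 of 169 in TCKO, 3 genes named for their differences.

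Of the 11 microRNA host genes, 7 were under 10% in WT and 1 was called higher. That one was Mir99ahg (chromosome 16, 222611 bp from Usp25), which rose from 134 of 311 methylated calls, 43.1%, to 187 of 247, 75.7% (adjusted Fisher exact p 5.07e-13). Its WT level was uneven: 41 of 55 calls were methylated from -1000 to -801 and 1 of 44 from 600 to 799, where TCKO had 46 of 47 and 19 of 40. Dnm3os, which hosts microRNAs of skeletal development, had 0 of 364 methylated calls in WT and 4 of 345 in TCKO. Mir22hg had 2 of 352 and 1 of 229, and Mir670hg 4 of 422 and 5 of 369. Mir155hg, which hosts an immune microRNA, had 26.1 and 27.1%, and Mir133a-1hg, which hosts a muscle microRNA, 74.5 and 89.6% without reaching 20 points.

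Imprinted lncRNAs are expressed from the copy of 1 parent. All 8 on the list had a WT level between 44.0 and 84.6%, and none was called. The median levels were 65.0% in WT and 63.9% in TCKO. The median of the differences was 1.825 points, and 6 of the 8 were higher in TCKO. H19 had 202 of 357 methylated calls in WT, 56.6%, and 158 of 275 in TCKO, 57.5%. Airn had 57.6 and 55.9%, Nespas 60.8 and 61.6%, and Kcnq1ot1 71.4 and 66.3%. In the Dlk1-Dio3 cluster Meg3 had 44.0 and 53.5%, Rian 69.2 and 86.6% (adjusted Fisher exact p 0.00803, under 20 points), and Mirg 84.5 and 92.5%. Snhg14 had 77.8 and 80.6%. The window of an imprinted gene need not lie at its imprinting control region, and the alleles were not separated.

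Among 12 abundant or widely studied lncRNAs, 1 was called higher. Malat1 had 6 methylated calls of 1074 in WT, 0.559%, and 9 of 804 in TCKO, 1.12%. Its neighbour on chromosome 19, Neat1, which builds the nuclear paraspeckle, was that one, with 29 of 470 in WT, 6.17% (95% Wilson interval 4.33 to 8.72%), and 55 of 196 in TCKO, 28.1% (22.2 to 34.7%; adjusted Fisher exact p 1.57e-11). Bins of Neat1 within the gene held methylated calls in both libraries. From 800 to 999 bp after the TSS there were 9 of 40 in WT and 20 of 37 in TCKO. From 0 to 199 bp the methylated calls were 3 of 31 and 14 of 28. Upstream, from -600 to -401, neither library had any, but WT had 116 calls there and TCKO 7. Neat1 differed by 3.32 points over the 1 kb upstream alone and by 19.04 points over CG cytosines with a call in both libraries. As a mean over CG cytosines it differed by 17.05 points, and on the plus strand by 18.86 points. It was called in none of these, and in all it was not called in 5 of 17 alternatives. Sox2ot had 61.8 and 77.0%, Lncpint 30.1 and 43.3%, Tug1 41.9 and 45.4%, Trp53cor1 41.7 and 46.3%, Pvt1 43.2 and 36.5%, and Fendrr 8.60 and 3.19%. The largest decrease of the list was at Miat, named for it, with 58.6 and 43.5% (adjusted Fisher exact p 0.0221), and 9 of the 12 were higher in TCKO.

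The 10 HOX cluster lncRNA windows had medians of 7.81% in WT and 8.13% in TCKO, and none was called. Hotair had 5.05 and 6.26%, Hottip 5.06 and 5.00%, Hoxaas2 2.22% in both, Hoxa11os 4.81 and 5.99%, Hotairm1 10.1 and 8.49%, Hoxd3os1 24.8 and 25.3%, and Hoxb3os 9.48 and 9.53%. The differences ran from -6.58 points at Hoxb5os (31.3 and 24.7%), named for it, to 12.2 points at Halr1 (55.1 and 67.3%, adjusted Fisher exact p 0.00139), which lies outside the HoxA genes.

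The 33 lncRNAs beside genes of developmental transcription factors had medians of 9.50 and 10.9%, and 15 were under 10% in both libraries. In all, 23 of the 33 were higher in TCKO. Tbx3os1 had 18 methylated calls of 1165 in WT and 9 of 851 in TCKO, and Emx2os 8 of 789 and 9 of 782. Nkx2-2os had 145 of 746 and 190 of 801, Otx2os1 32 of 712 and 39 of 561, and Lhx1os 4 of 691 and 0 of 486. The 2 called higher were Foxo6os, from 55.0 to 77.0%, and Runx2os2, which are named here because they were called. Runx2 encodes the transcription factor that osteoblast differentiation requires, and 3 lncRNAs lie antisense within it on chromosome 17. Runx2os2 had 50 of 160 methylated calls in WT, 31.2%, and 140 of 185 in TCKO, 75.7% (adjusted Fisher exact p 8.49e-15), and from -600 to -401 the calls were 0 of 32 in WT and 47 of 57 in TCKO. Runx2os1 was not methylated in either library (0 of 410 and 0 of 446 calls, which allows a share of up to 0.732 and 0.673%, or 3 counts of the total), and Runx2os3 was methylated in both, at 91.2 and 93.1%. The 3 antisense transcripts of 1 gene thus had 3 different patterns, and they were chosen after their values were seen.

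**Figure D5:**
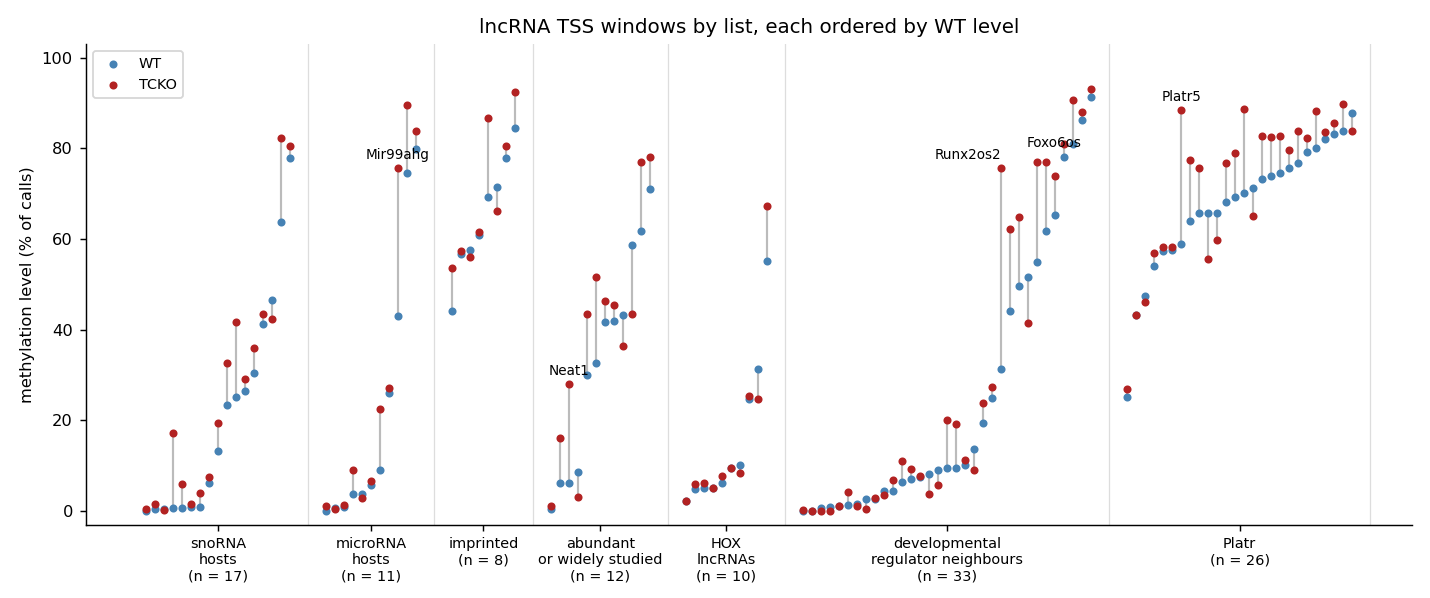
Methylation level (y axis, % of calls) of each lncRNA window in 7 lists, ordered by WT level within a list, in WT and TCKO, with a line joining both libraries. Called windows are named. Imprinted lncRNAs sit between 44.0 and 84.6% in WT, while some snoRNA hosts, HOX lncRNAs and developmental neighbours are near 0 in both libraries.

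Of 7696 windows of genes with only a clone or model name (Gm or Rik), 782 (10.2%) were called higher and 12 lower. These genes make up most of the 8760 lncRNA windows, so their share is bound to lie near the 10.2% over all of them. Of 281 named for the gene on the opposite strand, 22 (7.83%) were higher and 1 lower. Of the 26 Platr genes, which are expressed in pluripotent cells, 1 was called higher, with medians of 69.7 and 79.3% over the list. Platr5 was that window, at 58.9 and 88.3%, named here because it was called. Platr8 had 74.5 and 82.7%, Platr12 80.2 and 88.3%, and Platr20 81.9 and 83.6%.

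Pairs of neighbouring TSSs gave a closer look at shared promoter regions. In 671 proximal cases the lncRNA TSS lay over 500 bp and at most 2 kb from the nearest protein-coding TSS, so that windows of 250 bp on either side of each do not overlap, and 581 pairs had at least 10 calls in each library around each TSS. The median level was 3.23% in WT and 7.27% in TCKO at the lncRNA TSS and 0% in both at the protein-coding TSS. A rise of at least 20 points was seen at 47 lncRNA TSSs and 29 protein-coding TSSs, and the lncRNA TSS had the larger difference in 300 of 581 pairs (51.6%). Pairs with equal differences counted against the lncRNA TSS, and their number was not taken. The median difference was 0.873 points at the lncRNA TSS and 0 at the protein-coding TSS.

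Some short sequences were found more often in the distal windows called higher than in the other distal windows. The study reported the bZIP, Runt, bHLH and TEAD families among the top motifs of regions more methylated in TCKO. It did so from the same 2 libraries, so the shares of these families here are no independent support. Letters bound by 5 transcription factor families were searched on both strands of each 2 kb window. The bZIP letters TGACTCA were in 328 (40%) of the 820 distal windows called higher, 30.4% of the other distal windows and 25.8% of all gene windows. The Runt letters AACCACA were in 42.8, 36.7 and 34.8%, the TEAD letters CATTCCA in 34.5, 29.7 and 27.6%, and the bHLH letters CAGCTG in 70.98, 64.0 and 61.1%. The Sp/KLF letters GGGCGG, common in CpG islands, were in 28.8% of the called distal windows, 32.3% of the others, 83.4% of proximal windows and 68.9% of protein-coding windows. A match of letters is a description of the sequence and shows no binding.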

How the data were processed

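The libraries were assigned to genotypes by their labels. Per the labels and the methods of the study, the reads were mapped by the authors with BSMAP 2.74 on GRCm38, limited to unique hits, and they deposited 2 counts for every CG cytosine on each strand, methylated calls and all calls, without normalization. Every deposited autosomal position (100%) was a CG in GRCm38. The other data types of the series were not analysed here.

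Counts were summed over CG cytosines within 1 kb of the gene-level TSS of GENCODE M21, and windows with at least 8 CG cytosines and 30 calls in each library were tested by 2-sided Fisher exact tests, adjusted after Benjamini-Hochberg over 49652 windows. The code was tested on simulated data. Genes named were the 8 distal and 8 proximal windows with the largest called increases, the 6 largest called decreases, and up to 8 members a list with the most calls, while other named genes are marked as such. Members, lists and rules were chosen with earlier results of these data known. Alternatives changed the window, the minimum, the averaging, the strand, the distance class, the repeats and the call rule. Python 3.11.15, numpy 2.4.6, pandas 2.3.3, scipy 1.17.1, numba 0.67.0 and matplotlib 3.10.9 were used.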

Additional observations from a re-analysis of the deposited data

How the results depend on the processing

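Under all alternatives run, both median differences stayed above 0 and more windows were called higher than lower in each class. Among single windows named by the rule, 347 of 408 repeats of 24 called windows kept the call and 31 did not. In 30 the window fell below the minimum, and none of the 378 measured changed direction. Part of these repeats was fixed in advance. Changes of the class limit, the distance measure or the overlap of windows, unadjusted p and no minimum difference could not remove a window's call. The count of unchanged directions also includes alternatives that leave a window's difference as it was. Of windows that were not called, 27 repeats became calls. The distal median difference of 6.98 points was 6.66 within 500 bp of the TSS, 6.74 in the 1 kb upstream, 7.22 with at least 20 CG cytosines and 100 calls, 7.64 as a mean over CG cytosines, 7.41 on the minus strand and 7.48 without soft-masked CG cytosines. The proximal median difference of 2.89 points was 0.920 within 500 bp, 4.57 within 2 kb, 1.33 in the 1 kb upstream, 5.33 as a mean over CG cytosines, 2.45 on the plus strand and 3.44 with a class limit of 5 kb. The 820 distal windows called higher were 519 within 2 kb, 77 with a minimum of 40 points and 2473 with no minimum, and the 72 proximal windows were 154 as a mean over CG cytosines, 5 with a minimum of 40 points and 382 with no minimum. The 10 distal windows called lower were 18 within 500 bp, 3 within 2 kb, 20 in the 1 kb upstream, 2 with the stricter minimum, 18 on the plus strand, 24 on the minus strand, 6 without soft-masked CG cytosines, 6 over CG cytosines called in both libraries, 2 with a minimum of 40 points and 51 with no minimum. The 5 proximal windows called lower were 3 within 2 kb, 3 in the 1 kb upstream, 3 with the stricter minimum, 10 as a mean over CG cytosines, 18 on each strand, 3 over CG cytosines called in both libraries, 1 with a minimum of 40 points and 48 with no minimum. The cause of these shifts was not tested, apart from the call rules, whose construction sets them. No paired analysis was possible because there was 1 library per genotype, and no library could be left out. At the minimum of 30 calls a level is imprecise.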

Other observations

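Some further named lncRNAs among the called windows are given here after their values were seen. Those with symbols that end in os, with or without a number, belong to the genes named for the opposite strand. They were already counted in that list above, and the others lie outside the lists. Ptgs2os2 on chromosome 1, whose nearest protein-coding gene is the prostaglandin synthase Ptgs2 (64917 bp), had 55 methylated calls of 314 in WT, 17.5%, and 181 of 269 in TCKO, 67.3% (adjusted Fisher exact p 2.24e-32). Bcas3os1 on chromosome 11, 112807 bp from the T-box gene Tbx2, had 42.0 and 83.1%. Lncbate1, a lncRNA of brown fat, had 38.1 and 75.9%, and Wincr1, a lncRNA that responds to Wnt signals, 43.8 and 74.3%. Chaer1, a lncRNA of the heart, had 54.0 and 78.2%.

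Proximal members included Fgf2os, 1394 bp from the TSS of the growth factor gene Fgf2, with 44.6 and 69.1%, and Pmepa1os, 165 bp from Pmepa1, a gene induced by TGF-beta, with 11.99 and 37.4%. Eldr, 93 bp from Fbxo48, had 6.04% over 364 calls in WT and 27.2% over 287 calls in TCKO, and Brip1os, beside the DNA repair gene Brip1, had 8.03 and 28.7%. In the other direction, AU022754, antisense within Wnt7b, had 20 methylated calls of 94 in WT and 1 of 130 in TCKO, and Nr5a1os, antisense within the steroidogenic factor gene Nr5a1, had 45.6 and 23.0%.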
